A study of Homo sapiens with 2 samples.

Results

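The BCL2 family genes described here are 10 genes picked by symbol from the 27655 rows of the authors' deposited comparison: BCL2, BCL2L1, MCL1, BMF, BBC3, BAX, BAK1, BID, PMAIP1 and BCL2L11. Each symbol matched 1 row. Poly-A RNA came from PC9-BrM3 lung cancer cells in routine culture, with PCDH1 knockdown (shPCDH1) or without it (shNC, genotype given as WT), and GEO lists 1 sample per group. PC9 is a lung adenocarcinoma line with an activating EGFR mutation, and the labels do not state whether either population was 1 clone. The deposited table sets a group coded 8 over a group coded 7, and neither code, nor any of the 6 library names in the header, is matched by a label to shPCDH1 or shNC. Directions are given as group 8 relative to group 7. The 20 columns that hold levels were left out for that reason, so neither the level of a gene nor the depth of a library is given.

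BCL2 family proteins control the permeability of the mitochondrial outer membrane. The effectors BAX and BAK1 oligomerise in that membrane and release cytochrome c, which starts the caspase cascade. Survival proteins (BCL2, BCL-xL from BCL2L1, and MCL1) bind and restrain the effectors, and BH3-only proteins (BIM from BCL2L11, BMF, PUMA from BBC3, NOXA from PMAIP1, and BID) bind the survival proteins or activate the effectors. In EGFR-mutant lung cancer cells, BIM is known as a mediator of the apoptosis that follows EGFR inhibition.

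Promoter sequence is shown for 3 called members, those whose promoter window held a match to a motif other than the GC box. The windows run from 250 bases before to 50 bases after a RefSeq start, which can differ from the gene start in the deposited table, read 5′ to 3′ on the gene's strand, and come from RefSeq on GRCh38.p14. Capitals mark the matches to motifs other than the GC box, whose copies stay in lower case. In BMF (chr15:40108830-40109129, minus strand, the more upstream of 2 starts in the table) they mark a match to the NF-kB motif. In BCL2L11 (chr2:111120664-111120963, plus strand) they mark the FOXO motif GTAAACA. That window lies wholly inside the gene as the deposited table gives it, which begins at 111119378. In BCL2L1 (chr20:31723914-31724213, minus strand, the more upstream of 2 starts) they mark 2 copies of the TATA box TATAAA.
BMF: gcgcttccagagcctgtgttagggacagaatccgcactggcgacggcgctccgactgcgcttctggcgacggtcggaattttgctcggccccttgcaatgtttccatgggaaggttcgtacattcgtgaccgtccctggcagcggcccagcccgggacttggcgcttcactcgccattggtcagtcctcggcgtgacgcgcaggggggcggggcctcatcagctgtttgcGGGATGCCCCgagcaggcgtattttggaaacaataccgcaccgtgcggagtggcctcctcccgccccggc
BCL2L11: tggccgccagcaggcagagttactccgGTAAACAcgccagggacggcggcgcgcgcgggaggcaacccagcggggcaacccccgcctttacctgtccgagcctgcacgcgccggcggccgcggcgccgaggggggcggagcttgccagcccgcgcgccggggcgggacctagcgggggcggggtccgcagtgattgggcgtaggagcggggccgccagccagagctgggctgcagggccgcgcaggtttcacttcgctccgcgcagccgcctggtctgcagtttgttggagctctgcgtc
BCL2L1: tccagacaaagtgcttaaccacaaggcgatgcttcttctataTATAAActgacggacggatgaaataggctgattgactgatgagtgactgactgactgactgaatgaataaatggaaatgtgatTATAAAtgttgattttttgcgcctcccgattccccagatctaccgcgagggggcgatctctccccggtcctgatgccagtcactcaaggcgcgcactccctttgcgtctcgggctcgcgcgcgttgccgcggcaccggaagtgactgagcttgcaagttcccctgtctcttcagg

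Of the 10 members, 6 had an adjusted p under 0.05 in the authors' deposited table, 4 of them higher and 2 lower in group 8. All 10 members were among the 18002 genes with an adjusted p below 1, of which 21.6% were called, 10.4% higher and 11.2% lower. Among the 13609 protein-coding genes of that set, 26% were called. The median log2 fold change of the members was 0.042, against -0.0062 over the 18002 genes, and 5 members lay above 0 and 5 below. By role among these 10 members, 3 of 5 BH3-only genes rose and none of the 5 fell. Of the 3 survival genes, 2 fell while MCL1 rose, and neither of the 2 effector genes was called. The BH3-only genes BAD, BIK and HRK, the survival gene BCL2L2 and the effector BOK, given below with other BCL2-like genes, were not called. Each value below is a log2 fold change of group 8 over group 7 with the standard error that the deposited p implies if it came from a Wald test. The authors' test is not given in the sources used here. The 95% intervals use the same error. No label says that the libraries came from separate cultures, so the p-values may rest on technical spread alone.

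**Figure D1:**
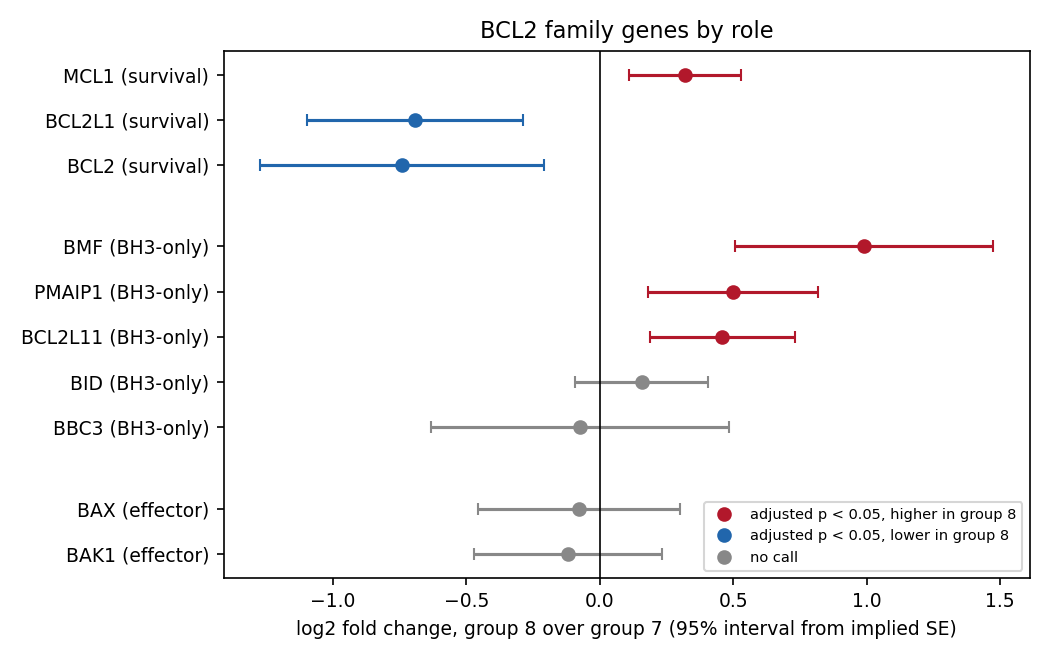
Log2 fold change of each BCL2 family gene, group 8 over group 7, with points for the authors' deposited values and bars for 95% intervals from the implied standard error, grouped by role. The intervals of BMF, PMAIP1, BCL2L11 and MCL1 lie above 0, those of BCL2 and BCL2L1 lie below 0, and those of BID, BBC3, BAX and BAK1 include 0.

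Among the BH3-only genes, BMF had the highest value of the 10 members. BMF encodes a BH3-only protein known to be held on the actin-based cytoskeleton through a dynein light chain and freed by stress, including loss of attachment (ENSG00000104081, chromosome 15, 40087890 to 40108892, minus strand, GRCh38). In the authors' deposited table its log2 fold change was 0.99 ± 0.25, or 1.99-fold higher in group 8, with a 95% interval of 1.42-fold to 2.78-fold and an adjusted p of 0.000747. Larger rises were listed for 35.3% of the genes called higher, whose median was 0.80. BMF-AS1, an antisense gene that shares 461 of BMF's 5447 exon bases, was not analysed here, and the library protocol used ordinary dNTP in the second strand, so reads from the opposite strands cannot be told apart.

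PMAIP1 and BCL2L11 also rose. PMAIP1 encodes NOXA, which binds MCL1 and promotes its degradation (ENSG00000141682, chromosome 18, 59899948 to 59904306, plus strand). In the authors' deposited table its log2 fold change was 0.50 ± 0.16, or 1.41-fold higher, with a 95% interval of 1.13-fold to 1.76-fold and an adjusted p of 0.014. No other gene of GENCODE release 29 overlaps it. BCL2L11 encodes BIM, which binds all the main survival proteins and activates BAX and BAK1 (ENSG00000153094, chromosome 2, 111119378 to 111168447, plus strand). Its log2 fold change in the authors' deposited table was 0.46 ± 0.14, or 1.38-fold higher, with a 95% interval of 1.14-fold to 1.66-fold and an adjusted p of 0.00706. BCL2L11 lies inside MIR4435-2HG on the opposite strand, with 727 of its 6658 exon bases shared, and that gene had -0.27 ± 0.15 with an adjusted p of 0.195. Both PMAIP1 and BCL2L11 had smaller changes than most genes called higher, since 82.1% and 87.5% of those had larger values.

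The other BH3-only members, BID and BBC3, were not called. BID, the protein that caspase-8 cleaves to carry death receptor signals to mitochondria (ENSG00000015475, chromosome 22, 17734138 to 17774770, minus strand), had 0.16 ± 0.13 and an adjusted p of 0.425 in the authors' deposited table, and its 95% interval ran from -0.092 to 0.41. BBC3 encodes PUMA, which binds all the main survival proteins (ENSG00000105327, chromosome 19, 47220822 to 47232766, minus strand), and had -0.073 ± 0.28 with an adjusted p of 0.898. Its interval of -0.63 to 0.48 includes the value of BCL2L11, 0.46, so a rise of that size in BBC3 is not excluded. The difference between members was not tested.

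The survival genes went both ways. BCL2L1 encodes BCL-xL as its main product (ENSG00000171552, chromosome 20, 31664452 to 31723989, minus strand). In the authors' deposited table BCL2L1 stood at -0.69 ± 0.21, which puts group 8 at 61.9% of group 7 (1.62-fold lower), and its adjusted p was 0.00639. Its antisense gene ABALON shares 1424 of the 3314 exon bases of BCL2L1, and was itself listed at -0.81 ± 0.52 with an adjusted p of 0.285. The same table gave BCL2, the founding survival gene of the family (ENSG00000171791, chromosome 18, 63123346 to 63320128, minus strand), a log2 fold change of -0.74 ± 0.27, a level in group 8 at 59.9% of that in group 7, and an adjusted p of 0.0333. BCL2 was the called member nearest to the threshold, and its adjusted p was 0.0509 when all deposited p-values entered the adjustment, which ends the call. Of the genes called lower, whose median was -0.65, 39.1% fell by more than BCL2 and 43.9% by more than BCL2L1.

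MCL1 was the survival gene that rose. It encodes a short-lived protein that binds BAK1 and BIM and is the main partner of NOXA (ENSG00000143384, chromosome 1, 150574551 to 150579738, minus strand). In the authors' deposited table its log2 fold change was 0.32 ± 0.11, or 1.25-fold higher in group 8, with a 95% interval of 1.08-fold to 1.44-fold and an adjusted p of 0.0168. MCL1 had the smallest change and the smallest standard error of the 6 called members, and 99.3% of genes called higher had larger values. Gene-level values pool all transcripts, 9 for BCL2L1, 4 for MCL1 and 25 for BCL2L11 in GENCODE release 29, so products with opposite known effects, such as BCL-xL and the short BCL-xS, were not separated.

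The effector genes were not called and both lay near 0. BAX (ENSG00000087088, chromosome 19, 48954815 to 48961798, plus strand) had -0.078 ± 0.19 and an adjusted p of 0.832 in the authors' deposited table, with a 95% interval of -0.46 to 0.30. BAK1 (ENSG00000030110, chromosome 6, 33572547 to 33580293, minus strand) had -0.12 ± 0.18 and an adjusted p of 0.707, with an interval of -0.47 to 0.23. BAX is cytosolic in healthy cells while BAK1 sits in the mitochondrial membrane. True changes of any size within those intervals are not excluded, so the values do not show that either gene was at the same level in both groups.

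**Figure D2:**
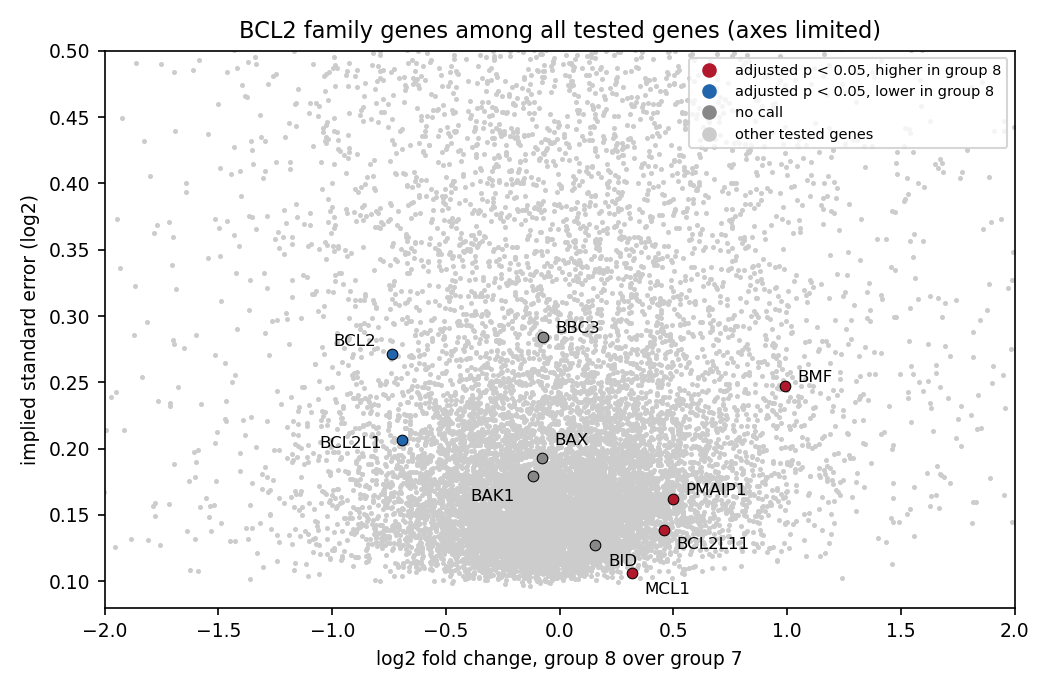
Log2 fold change of group 8 over group 7 (horizontal) against the implied standard error on the log2 scale (vertical) for genes with an adjusted p below 1, with the 10 BCL2 family genes coloured by call and the axes limited to the region that holds them. MCL1 has the smallest standard error of the members, 0.11, and BBC3 the largest, 0.28, against a median of 0.21 over all 18002 genes.

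The promoter windows of the called members differed in motif content. The set of RefSeq promoter windows used here covered 9 of the 10 members (15 starts) and held none for MCL1. Motifs were searched on both strands in 35116 windows of 300 bases. The NF-kB motif, the consensus bound by NF-kB dimers, matched BMF at position -20 from its upstream start, on both strands, and matched 11.3% of all windows. The other BMF start, 1 of 2 in the table, held no match to any motif searched. The FOXO motif GTAAACA was found in BCL2L11 at position -223 from its RefSeq start, and in 3.42% of all windows. The TATA box TATAAA was found at positions -208 and -125 from the upstream start of BCL2L1, and in 11.5% of windows. No copy of the E-box CACGTG was found in a called member. Among the members with no call, BAX held 4 copies, and BBC3 and BID also held it, as did 7.26% of all windows. The AP-1 motif TGANTCA, present in 7.71% of windows, was found among the members in BBC3 alone. Neither the CRE word TGACGTCA nor the C/EBP word TTGCGCAA, in 1.85% and 0.151% of windows, was found in a member. The GC box GGGCGG, in 45% of windows, had 4 copies in PMAIP1 and 3 in BCL2L11. It had 2 at the upstream start of BMF and 1 at the downstream start of BCL2L1. Members with no call also held it, with 2 copies each in BAX and BAK1 and up to 4 at a start of BID. BBC3 held none, and the BCL2 window held no match to any motif searched. These motifs and genes were chosen with values known, and a match is a description of letters only.

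**Figure D3:**
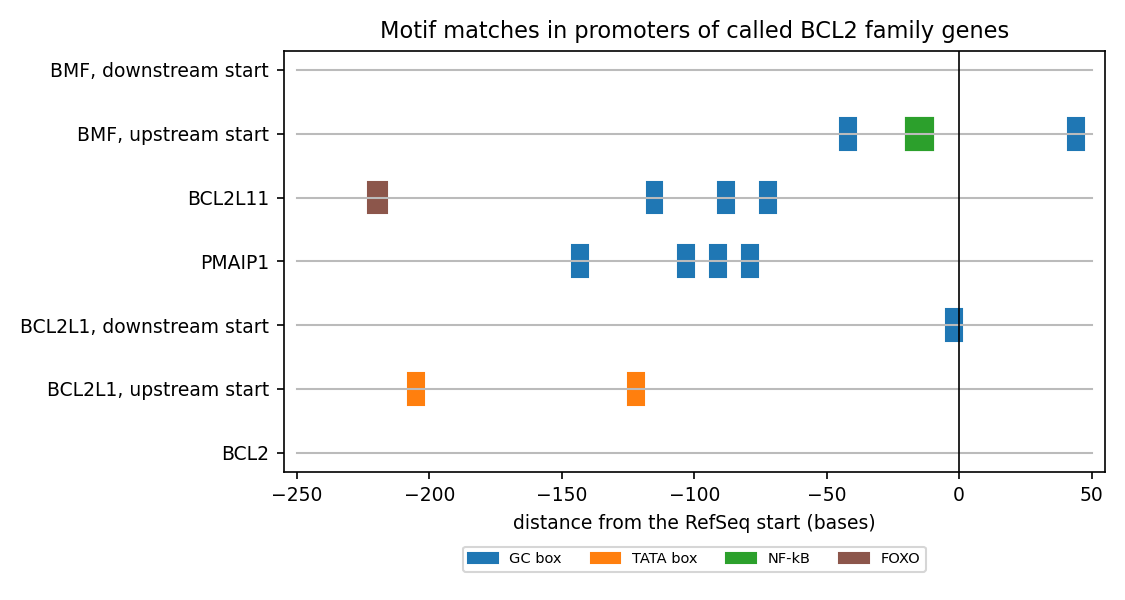
Positions of motif matches in the RefSeq promoter windows of called BCL2 family genes other than MCL1, as bases from the start, with 1 line per start and coloured blocks for matches on either strand. The NF-kB match of BMF begins at position -20 from its upstream start and the FOXO match of BCL2L11 at position -223.

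Of 12 other BCL2-like genes measured, 2 rose and none fell at an adjusted p under 0.05 in the authors' deposited table, with a median log2 fold change of -0.19. The called share was 21.6% among all tested genes and 26% among the protein-coding ones. BNIP3 and BNIP3L, mitochondrial proteins that serve as mitophagy receptors, had 0.76 ± 0.13 and 0.46 ± 0.13, with adjusted p of 2.18e-07 and 0.0041. BCL2L13 and BCL2L12, the most precisely measured without a call, had -0.25 ± 0.13 and -0.28 ± 0.14. The BH3-only genes BAD, BIK and HRK had -0.33 ± 0.27, 0.43 ± 0.33 and -0.19 ± 0.44, with no call. The survival gene BCL2L2 had 0.15 ± 0.16 and the effector BOK -0.19 ± 0.14, also with no call. BCL2A1 was not analysed here.

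Downstream of the mitochondria, most called genes rose. In the list of apoptosome, caspase and mitochondrial factor genes, 5 of 16 rows were higher and 1 lower, with a median of 0.19. Over all tested genes, 10.4% were called higher and 11.2% lower. DIABLO matched 2 rows of that list, neither called. CASP10, an initiator caspase of death receptors, had 1.83 ± 0.16 and an adjusted p of 6.87e-28 in the authors' deposited table. APAF1, the scaffold of the apoptosome, had 0.81 ± 0.23, with an adjusted p of 0.00384. CASP8, which cleaves BID, had 0.35 ± 0.12, with an adjusted p of 0.0224. ENDOG, a mitochondrial nuclease, fell by 0.59 ± 0.21 on the log2 scale, with an adjusted p of 0.0241. CYCS, cytochrome c, had -0.21 ± 0.11 and CASP2 -0.12 ± 0.12, with no call.

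Among 7 inhibitor of apoptosis genes, 2 rose and 1 fell, with a median of 0.12. The shares over all tested genes were 10.4% higher and 11.2% lower. BIRC3 and BIRC2, the ubiquitin ligases cIAP2 and cIAP1, had 2.38 ± 0.18 and 0.57 ± 0.17 in the authors' deposited table, with adjusted p of 2.33e-36 and 0.00689. BIRC5, survivin, had -0.45 ± 0.11 and an adjusted p of 0.000653. XIAP, a direct caspase inhibitor, had 0.12 ± 0.16, and BIRC6 0.061 ± 0.18, with no call. Among 9 death receptor pathway genes, 1 rose and none fell, with a median of 0.084. The receptor gene FAS had 0.74 ± 0.26 and an adjusted p of 0.0292, while TNFRSF10B, a TRAIL receptor, had 0.20 ± 0.12 and TNFRSF1A 0.19 ± 0.13, with no call.

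Among 8 outer membrane channel and BCL2 cofactor genes, none rose and 4 fell, with a median of -0.20. Calls over all tested genes stood at 10.4% higher and 11.2% lower. BAG1, a co-chaperone first described as a BCL2 binding protein, had -0.91 ± 0.15 and an adjusted p of 3.22e-08 in the authors' deposited table. PGAM5, a mitochondrial phosphatase that binds BCL-xL, had -0.62 ± 0.15, BAG3 -0.53 ± 0.16 and VDAC1, a channel of the outer membrane, -0.33 ± 0.10. TMBIM6 and VDAC3 had -0.064 ± 0.10 and -0.070 ± 0.11, with no call. Among 9 ubiquitin ligase and deubiquitinase genes that act on BCL2 proteins, 1 rose and none fell, with a median of 0.17. BTRC, the ligase subunit beta-TrCP, had 0.47 ± 0.14 and an adjusted p of 0.00619, while MARCH5 had 0.22 ± 0.15 and DESI1 -0.27 ± 0.16, with no call.

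Among 16 transcription factor genes known to regulate BH3-only genes or other members of the family, 3 rose and 2 fell, with a median of 0.037. CEBPB had 0.92 ± 0.13, NFKB1, an NF-kB subunit, 0.38 ± 0.13 and JUN, an AP-1 subunit, 0.37 ± 0.14 in the authors' deposited table, with adjusted p of 1.23e-11, 0.0206 and 0.031. MYC had -0.60 ± 0.12 and ATF4, a stress factor that can activate PMAIP1, -0.62 ± 0.14, with adjusted p of 9.64e-06 and 0.000254. RELA, the other main NF-kB subunit, had 0.011 ± 0.13, with no call. Over all 7 lists these counts can be read against the 21.6% of tested genes called, 10.4% higher and 11.2% lower. Among tested protein-coding genes the share called was 26%.

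**Figure D4:**
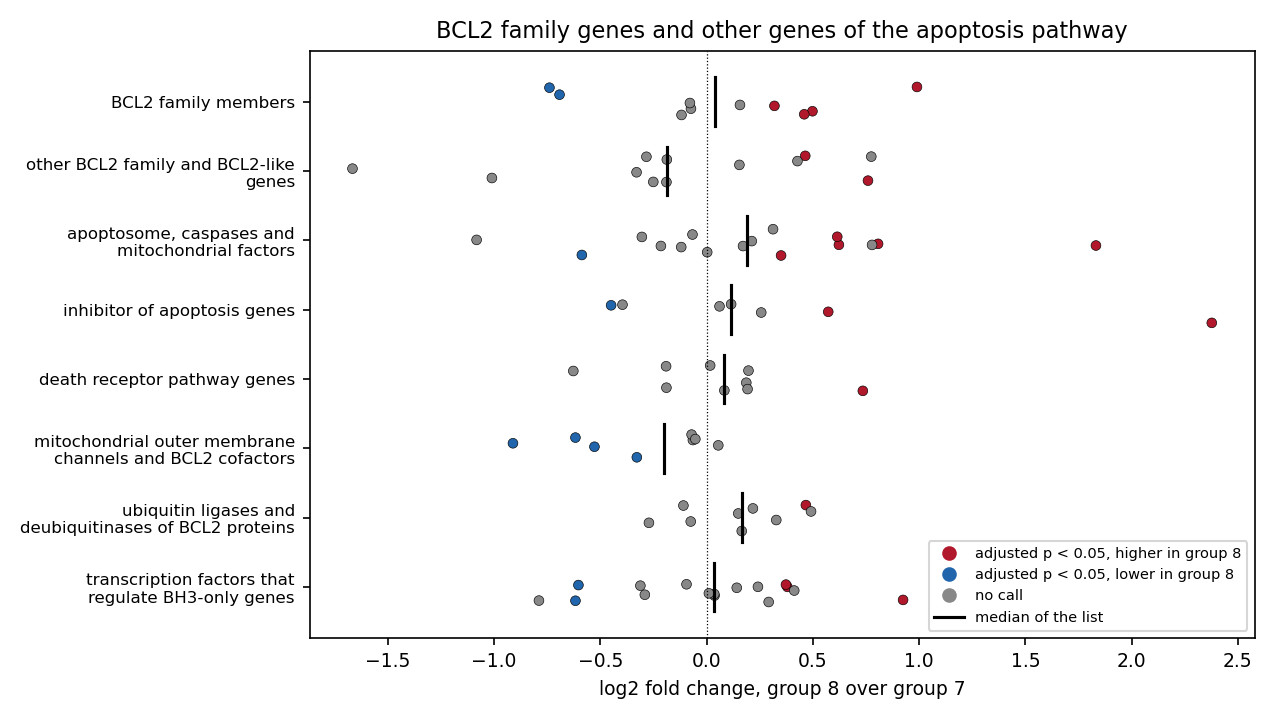
Log2 fold change of group 8 over group 7 for the 10 BCL2 family genes and 77 rows of 7 other lists of the apoptosis pathway, with 1 point per row of the authors' table, coloured by call, and black bars for medians. BIRC3 at 2.38 and CASP10 at 1.83 are the highest, and all 4 called genes of the outer membrane list lie below 0.

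PCDH1, the gene the hairpin targets, stood at -1.38 ± 0.14 in the authors' deposited table, a value that was not used to match codes to labels. Of 18 measured marker genes of epithelium, leukocytes, fibroblasts, endothelium and astrocytes, 3 rose and 2 fell. Of all tested genes, 10.4% were called higher and 11.2% lower, and 26% of the protein-coding ones were called. The markers CD3E, CD68, PDGFRB, DCN and GFAP were not among the genes with an adjusted p below 1. Of the epithelial markers, CDH1 had 0.38 ± 0.11 and KRT18 -0.50 ± 0.17, both called. EPCAM had 0.079 ± 0.10, KRT8 -0.35 ± 0.17 and KRT19 -0.26 ± 0.15, with no call. None of 5 leukocyte markers was called. COL1A1 had 1.04 ± 0.17, while PDGFRB and DCN had no call. SLC1A3 had 0.85 ± 0.18, while GFAP had -0.22 ± 2.4 and no call. PECAM1 had -1.73 ± 0.63, while VWF had -1.09 ± 0.73 and CDH5 0.34 ± 0.23, with no call. Levels were not used, so the presence of these markers was not checked, and their part in the values of the BCL2 family genes was not tested.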

How the data were processed

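The deposited table holds the authors' comparison of groups coded 8 and 7, per the file headers. DESeq2 1.20.0, featureCounts 1.5.0-p3, HISAT2 2.0.5 and CASAVA are named in the submitters' processing notes, with no roles or parameters. The log2 fold change per gene was deposited by the authors, as were a p-value and an adjusted p-value, per the file headers. Gene length, start and end in bases were deposited as annotation. The genome build is not given in the sources used here, and 27651 of 27655 rows have the start and end of GENCODE release 29 (GRCh38). No count model was fitted here, and 20 columns of values per library or group were not used, because no label maps their codes. Depth is therefore unknown.

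Calls are the authors' adjusted p under 0.05. The adjusted p of all 18002 genes with a value below 1 equals Benjamini-Hochberg adjustment over those genes within 0.1%, and the other 9653 rows are listed at 1. Standard errors are the absolute log2 fold change over the normal quantile of the two-sided p. The arithmetic of these steps was tested on simulated data whose p-values were made with the same Wald formula. That test cannot show whether the deposited p-values came from a Wald test. Lists were matched by symbol. All members were named, and of each other list the called genes (at most 6 by adjusted p) and the 2 uncalled genes with the smallest standard error. BAD, BIK, HRK, BCL2L2 and BOK were named in addition, because they share a role with the members. Some genes that this rule names are not reported here. Members and lists were chosen with earlier results of these data known. The promoter motifs, the 3 promoters printed and the genes neighbouring the members were chosen after values were seen. Python 3.11.15, pandas 2.3.3 and scipy 1.17.1 were used. Alternative settings were a threshold of 0.01 or 0.10, a minimum change of 0.5 or 1 on the log2 scale, Benjamini-Hochberg or Bonferroni adjustment over other sets of genes, centring, and the mean of the members.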

Additional observations from a re-analysis of the deposited data

How the results depend on the processing

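Of the 10 members, 6 were called as deposited, 3 at an adjusted p under 0.01 (BMF, BCL2L1 and BCL2L11), 3 at a minimum change of 0.5 on the log2 scale (BMF, BCL2 and BCL2L1, so 1 higher and 2 lower), 0 at a minimum of 1, and 0 under Bonferroni adjustment of all deposited p-values. At an unadjusted p under 0.05 the authors' table held 6. BCL2 alone lost its call under Benjamini-Hochberg adjustment over all deposited p-values. Centring on the protein-coding median of 0.017 changed no member's sign. At a minimum of 0.5, the BCL2-like list had 1 call in place of 2, the ubiquitin ligase list 0 in place of 1 and the transcription factor list 3 in place of 5. A minimum of 1 left 1 call of 6 in the caspase list and 1 of 3 in the inhibitor of apoptosis list, and 0 in the BCL2-like, death receptor, outer membrane, ubiquitin ligase and transcription factor lists. Bonferroni adjustment left 1 call each in the BCL2-like, caspase, inhibitor of apoptosis and outer membrane lists, 2 in the transcription factor list and 0 in the death receptor and ubiquitin ligase lists. At an adjusted p under 0.01, the death receptor list had 0 and the transcription factor list 3. These losses follow from the stricter thresholds themselves. The share of all tested genes called, 21.6%, was taken at an adjusted p under 0.05 alone. Counts at the other settings have no such share beside them, so they cannot be read as particular to the members or the lists. No paired analysis was possible because no label ties the library codes to the samples. For the same reason leaving out a library, another normalization and a filter on low counts were not run.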

Other observations

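The nearest tested protein-coding genes on each side of the 10 members were set beside them. Of these 20 neighbours, 4 were called in the authors' deposited table, 1 higher and 3 lower. Among all tested protein-coding genes, 26% were called. ACOXL ends 1156 bases before BCL2L11 on the same strand and had a log2 fold change of -0.83 ± 0.23 with an adjusted p of 0.00238, against 0.46 ± 0.14 for BCL2L11. ADAMTSL4, next to MCL1, had 2.05 ± 0.23 with an adjusted p of 3.16e-17, against 0.32 ± 0.11 for MCL1. ID1, an inhibitor of basic helix-loop-helix factors next to BCL2L1, had -0.67 ± 0.17 with an adjusted p of 0.00111, beside -0.69 ± 0.21 for BCL2L1. FTL, the ferritin light chain gene next to BAX, had -0.32 ± 0.11 with an adjusted p of 0.0232, beside -0.078 ± 0.19 for BAX. SRP14 and BUB1B, on the sides of BMF, had 0.095 ± 0.11 and -0.057 ± 0.15, with no call.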
